A study of Capra hircus with 24 samples.

Results

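Chemokines are small secreted proteins that draw leukocytes along a concentration gradient, and 8 chemokine genes were followed here in the milk and blood of healthy dairy goats. Their members were the probes of a cattle expression array whose transcript accession is one of 8 cattle RefSeq ids, which are NM_173925 (CXCL8), NM_174299 (a GRO-type CXCL, here CXCL2), NM_174300 (CXCL5), NM_001046551 (CXCL10), NM_174006 (CCL2), NM_174511 (CCL3), NM_175827 (CCL5) and NM_174263 (CCL20). All 8 ids had a probe, so the set is 8 of the 26748 accessions on the array, with 16 probes, of which 15 probes of 7 genes were bright enough to be tested. The files give these ids and no gene symbols, and no table used here carries the cattle ids, so the gene names are those of the cattle transcripts that the probes were designed on.

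RNA was taken from 8 female goats in lactation 3, 4 Polish White Improved (PWI) animals and 4 Polish Fawn Improved (PFI) ones, and no goat was treated. Each goat gave 3 RNA sources, namely milk somatic cells (MSC, the cells found in milk), milk fat globules (MFG, the secreted lipid droplets, which carry some cytoplasm out of the milk-making cell) and peripheral nuclear cells of blood (PNCB, left after red cells are lysed), which makes 24 two-colour arrays in 6 groups of 4. Every sample was labelled with Cy5 and hybridised against the same Cy3 reference, a blood cell RNA pool of 7 goats in lactation 4 (4 PWI and 3 PFI) sampled after lactation had ended, and dyes were not swapped. A value below is the log2 ratio of the sample over that reference for one probe, so 0 is the level of the reference blood pool, and values of different probes are not compared as amounts.

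Chemokines carrying the ELR motif, such as CXCL8, the GRO chemokines and CXCL5, act on the receptors CXCR1 and CXCR2 and recruit neutrophils, which are the cells that enter the udder in large numbers when bacteria do. CC chemokines such as CCL2, CCL3 and CCL5 recruit monocytes and lymphocytes instead, and CXCL10 and CCL20 attract lymphocytes through CXCR3 and CCR6. In milk they are made both by the leukocytes and by mammary epithelium. These roles are known mostly from human and mouse and, for CXCL8 in the udder, also from cattle.

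The share of all probes with a Cy5 signal well above background ran from 51.2% to 60.9% in MSC, from 57.5% to 65.6% in PNCB and from 44.1% to 84.6% in MFG, where PWI goats 2 and 4 stood apart at 84.6% and 75.3%. The spike-in slope, which says how far known ratios were recovered, was below 0.7 on 3 arrays, PNCB of PWI goats 3 and 4 (0.645 and 0.567) and MFG of PWI goat 2 (0.489). Milk and blood RNA were extracted with different kits, all MFG arrays were scanned on another day than the rest, and each group of source and breed lay on its own slide. Kit and blood, scan day and MFG, and slide and breed therefore cannot be told apart. Likewise fewer cells of a type and less RNA per cell cannot be told apart in such bulk samples. The labelled sources could not be checked against cell type markers, as the markers' accessions were not matched to symbols.

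Milk somatic cells gave far higher ratios than blood cells for 5 of the 7 tested chemokine genes. CXCL8, CXCL5, CCL2 and CCL3 were 9.45-fold to 47.4-fold higher in MSC at their brightest (lead) probe. CXCL2, which was not well above background in blood, was 80.0-fold higher in the ratios and 145-fold higher in Cy5 means. At the lead probes CXCL10 was 1.34-fold lower, and CCL5 did not pass the test. Of the 15 probes 9 were higher and 2 lower in MSC at an adjusted p under 0.05 (limma, Benjamini-Hochberg over 27381 probes), and the remaining 4 were the 3 CCL5 probes and 1 of CXCL10. The backgrounds are 22.5% of all tested probes called higher and 27.1% called lower. The CXCL2 probe and CCL2 probe A_73_P107661 were bright enough for testing only through milk groups, and CXCL10 probe A_73_P107671 only through blood groups. Calls of these probes between milk and blood are a description only. The median log2 difference of the 15 probes was 3.24, against -0.04 over all tested probes. All 9 higher probes, 5 lead probes among them, had every MSC value above every PNCB value. The share of all tested probes without such overlap was not counted, so this is a description only. The counts were again 9 higher and 2 lower once the 3 arrays with a low slope were dropped, a choice made after seeing the data.

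In milk fat globules the picture was split by gene. CXCL5, CCL2 and CCL3 were 3.04-fold to 20.6-fold higher than in blood. CXCL2 was 3.60-fold higher in the ratios and 3.03-fold higher in Cy5 means. CCL5 was 7.22-fold lower and CXCL10 1.41-fold lower, while CXCL8 did not pass the test. By probe, 5 were higher and 5 lower, against 25.5% and 38.4% of all probes, and the median log2 difference was -0.08 against -0.13 over all probes. Centring each array on its median in place of loess gave 4 higher and 7 lower, and it moved the median of all probes to -0.82. Against MSC, 11 probes were lower in MFG and 1 was higher, against backgrounds of 22.2% lower and 12.6% higher, with a median of -2.01 against -0.02. The median of all probes in that comparison was -0.61 with median centring, and that in MSC against PNCB was -0.17.

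**Figure D1:**
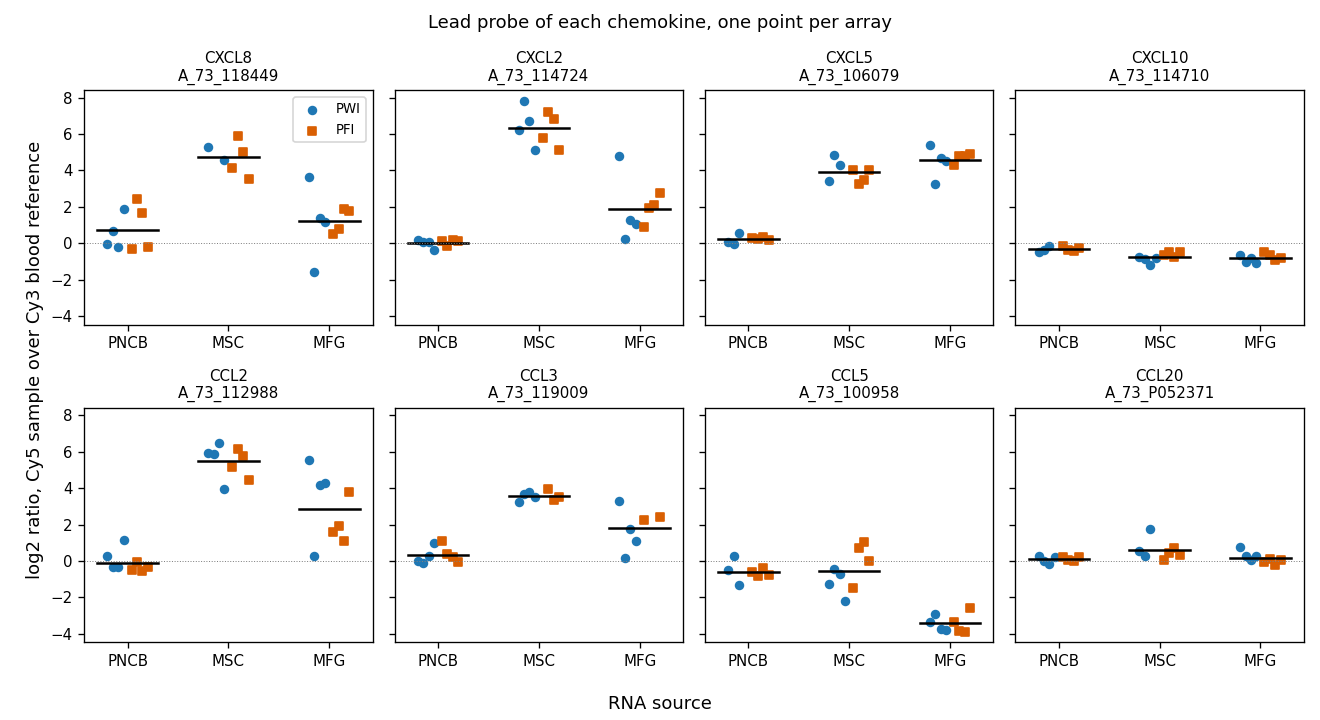
Log2 ratio of the sample over the blood reference (vertical axis, the same in every panel) for the lead probe of each chemokine, with 1 point per array, circles for PWI goats, squares for PFI goats and a bar at the mean of each source. The MSC points of CXCL8, CXCL2, CXCL5, CCL2 and CCL3 all lie above the PNCB points, and the MFG points of CCL5 all lie below those of both other sources.

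CXCL8, the best known neutrophil attractant, is read by probes A_73_118449 (lead), A_73_P107676 and A_73_P108356. The lead probe was at 5.27 and 4.56 in MSC of PWI goats 1 and 4 and at 4.16, 5.88, 5.0 and 3.55 in PFI goats 1 to 4. The MSC spots of PWI goats 2 and 3 were left out because the scanner software flagged their local background. In blood the lead probe lay at -0.05, 0.67, -0.21 and 1.90 in the PWI goats and at -0.32, 2.43, 1.65 and -0.23 in the PFI goats, a wide spread in which 3 goats stood well above the reference. In MFG it was at 3.63, -1.58, 1.39 and 1.16 in the PWI goats and at 0.49, 0.78, 1.90 and 1.77 in the PFI goats.

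MSC and blood values of CXCL8 did not overlap. The difference was 4.05 ± 0.64 (SE, 6 MSC and 8 PNCB arrays), or 16.6-fold, with an adjusted p of 2.32e-05, and it was 4.34 within PWI and 3.77 within PFI goats. The other CXCL8 probes gave 3.24 and 3.53. Probe A_73_P108356, measured on all 24 arrays, read 4.77, 5.70, 4.12 and 3.59 in MSC of the PWI goats and 3.78, 5.40, 5.03 and 3.21 in the PFI goats. MFG was lower than MSC at the lead probe, with a difference of -3.59 ± 0.64 (12.03-fold, adjusted p 0.00017), and lower in all 6 goats measured in both, although MFG of PWI goat 1 (3.63) lay just above MSC of PFI goat 4 (3.55). MFG and blood differed by 0.46 ± 0.57 with an adjusted p of 0.494 and a 95% interval from -0.73 to 1.66. Without PWI goat 1 that difference was -0.05, and with median centring it was -1.05.

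CXCL2, a further CXCR2 ligand, was bright in milk cells and not well above background in blood. Its lead and only probe, A_73_114724, was at 6.21, 7.82, 6.72 and 5.13 in MSC of PWI goats 1 to 4 and at 5.81, 7.24, 6.82 and 5.10 in PFI goats 1 to 4. In blood it lay between -0.38 and 0.20 with a median of 0.11, where 0 of 8 PNCB arrays had Cy5 well above background. Even before normalization the groups were far apart, with a net Cy5 signal of 3776 to 44694 units in MSC and of 2 to 13 units in PNCB. MFG fell between them at 4.79, 0.23, 1.27 and 1.08 in the PWI goats and 0.88, 1.92, 2.12 and 2.76 in the PFI goats.

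CXCL2 was 145-fold higher in MSC than in PNCB in the Cy5 channel (log2 means of 13.2 in MSC and 6.01 in PNCB). The ratios gave an 80.0-fold difference (adjusted p 2.82e-10, limma) with no overlap. The probe was bright enough for testing only through milk groups, where it was high, so its calls against blood are a description. The Cy5 fold is not a minimum. It compares single-dye signals without a dye swap and is open to dye bias. The Cy3 reference at this probe was well above background on 1 of 24 arrays, so the size of the ratio difference depends on the processing, at 6.32 here and at 10.07 in the authors' deposited log ratios converted to log2. MFG differed from MSC by -4.48 ± 0.48 (22.2-fold lower, adjusted p 2.42e-07) and again did not overlap. MFG, well above background on 7 of 8 arrays, was 3.03-fold above blood in Cy5 means (adjusted p of the ratios 0.00201, difference 1.85) and higher in 8 of 8 goats. That call ended within PWI goats alone (1.86, adjusted p 0.0712) and with flagged spots kept (1.24, adjusted p 0.105), and the deposited ratios gave 5.16.

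CXCL5, in humans a neutrophil attractant made largely by epithelium, was high in both milk sources. Its only probe, A_73_106079, read 3.44, 4.85 and 4.30 in MSC of PWI goats 1 to 3 and 4.01, 3.26, 3.46 and 4.01 in PFI goats 1 to 4. In MFG it read 5.40, 3.28, 4.67 and 4.50 in the PWI goats and 4.29, 4.80, 4.80 and 4.89 in the PFI goats. Blood lay between -0.06 and 0.54 with a median of 0.21 over 7 arrays, below all milk values of either kind. The MSC and PNCB spots of PWI goat 4 were left out for a flagged background.

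CXCL5 was 3.73 ± 0.25 higher in MSC than in blood (13.2-fold, adjusted p 1.37e-10) and 4.36 ± 0.24 higher in MFG than in blood (20.6-fold, adjusted p 2.67e-12). Its Cy5 signal in blood was well above background on 5 of 8 arrays, and its reference signal on 1 of 24, and the deposited ratios gave larger differences of 7.02 and 7.87. Between the milk sources MFG was 0.63 ± 0.24 above MSC (1.55-fold, adjusted p 0.0485), and 6 of 7 goats had the higher value in MFG. This call was fragile. With the goat as a block the difference was 0.68 with an adjusted p of 0.0714, within PWI goats it was 0.26 (0.825), without PWI goat 1 it was 0.29 (0.358), and with median centring it turned to -0.57, next to the -0.61 of all probes. Only 8 of 22 alternative settings kept the direction and the call.

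**Figure D2:**
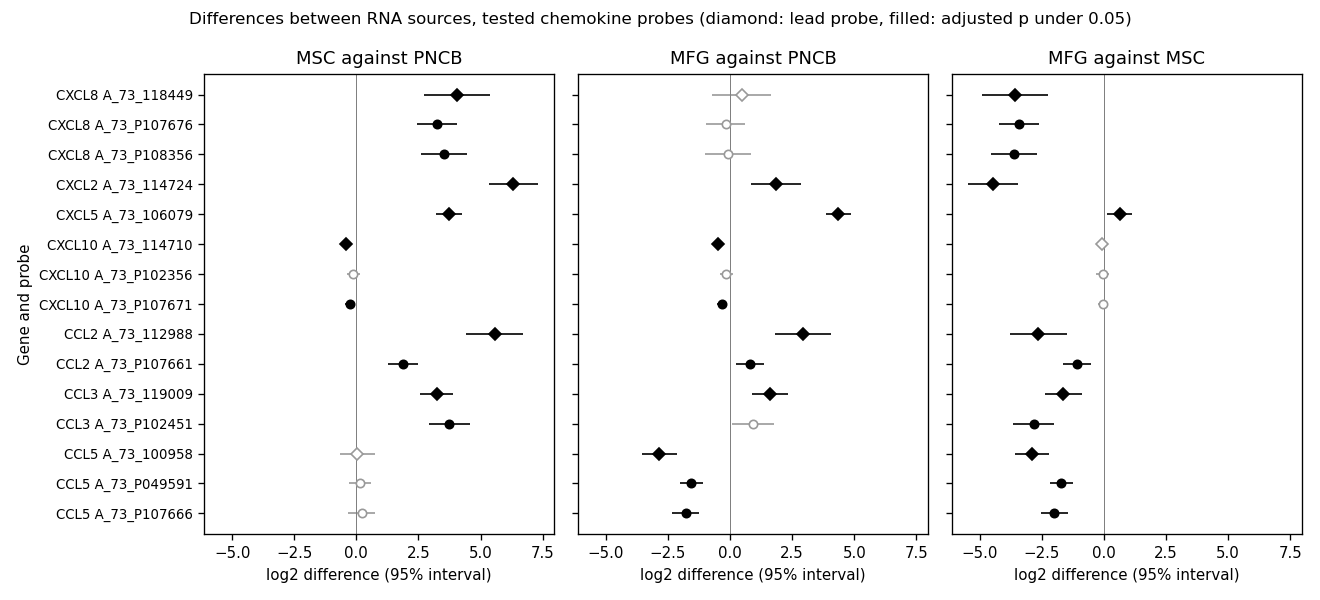
Log2 difference with its 95% interval for each tested chemokine probe in the 3 source comparisons, with diamonds for lead probes and filled symbols for an adjusted p under 0.05. The 9 probes of CXCL8, CXCL2, CXCL5, CCL2 and CCL3 lie to the right of 0 in MSC against PNCB, and in MFG against MSC the one filled symbol to the right of 0 is CXCL5 at 0.63.

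CXCL10, an interferon-induced ligand of CXCR3 on activated T cells, was the ELR-negative CXC member and was low in both milk sources. Its lead probe A_73_114710 lay between -1.17 and -0.47 in MSC (median -0.75), between -0.48 and -0.13 in PNCB (median -0.35, 7 arrays) and between -1.08 and -0.50 in MFG (median -0.82). The MSC and PNCB ranges touched at one end, while the MFG and PNCB ranges did not meet. CXCL10 was lower in MSC than in blood, by -0.43 ± 0.10 (adjusted p 0.00131), and lower in all 7 goats compared. In MFG the difference from blood was -0.50 ± 0.10 (adjusted p 0.000184). These differences are small, and that in MSC missed the threshold within PFI goats (-0.28, adjusted p 0.0794) and with flagged spots kept (-0.31, adjusted p 0.0743).

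The milk sources did not differ detectably in CXCL10, at -0.07 ± 0.10 with a 95% interval from -0.27 to 0.13. With median centring, which moved all probes, the difference was -0.76 (adjusted p 2.11e-06), against a median of -0.61 for all probes. Probe A_73_P107671 read lower in MSC (-0.27, limma adjusted p 0.028) and in MFG (-0.32, adjusted p 0.00776) than in blood. It was bright enough for testing only through the blood groups, where it was higher. These calls are therefore a description and lend no support to the lead probe. The probe was well above background on 5 of 8 MSC and 2 of 8 MFG arrays, so these sizes rest partly on signal near background. The 2 MFG arrays were those of PWI goats 2 and 4, which stood apart in their share of probes above background. The MSC call was lost with the goat as a block. Probe A_73_P102356 was well above background on 0 of 8 MSC arrays and passed no test. The CXCL10 probes followed each other loosely over the arrays, with r between 0.32 and 0.41.

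CCL2, the main monocyte attractant acting on CCR2, was high in milk cells in all goats. Its lead probe A_73_112988 read 5.94, 5.90, 6.48 and 3.96 in MSC of PWI goats 1 to 4 and 5.15, 6.17, 5.77 and 4.43 in PFI goats 1 to 4. In blood it lay between -0.54 and 1.13 with a median of -0.35, the 1.13 being PWI goat 4 on an array of low spike-in slope. In MFG it spanned the widest range of the lead probes, at 5.57, 0.24, 4.16 and 4.28 in the PWI goats and 1.61, 1.93, 1.11 and 3.77 in the PFI goats.

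MSC and blood values of CCL2 did not overlap, and the difference was 5.57 ± 0.55 (47.4-fold, adjusted p 1.79e-08). It was 7.07 with the deposited ratios, 6.71 with Cy5 alone and 4.03 as a mean over both CCL2 probes. MFG exceeded blood by 2.92 ± 0.55 (7.58-fold, adjusted p 7.3e-05) in 8 of 8 goats, and this was 3.58 once the arrays with a low spike-in slope were dropped. MFG differed from MSC by -2.64 ± 0.55 (6.24-fold lower, adjusted p 0.000613), lower in 7 of 8 goats. That call ended within PWI goats alone (-2.01, adjusted p 0.189), of which 1, PWI goat 4, read higher in MFG, and it held within PFI goats (-3.28, adjusted p 0.000564). The second CCL2 probe, A_73_P107661, had Cy5 well above background on 0 of 8 PNCB arrays. It was 3.68-fold higher in MSC in the ratios (difference 1.88, adjusted p 1.27e-05) and 4.85-fold higher in Cy5. As this probe was bright enough for testing only through milk groups, its call against blood is a description.

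CCL3, a macrophage product that attracts monocytes and lymphocytes, was high in milk cells in all goats. Its lead probe A_73_119009 read 3.26, 3.69, 3.8 and 3.51 in MSC of PWI goats 1 to 4 and 3.96, 3.36 and 3.49 in PFI goats 2 to 4. Flagged backgrounds removed the MSC spot of PFI goat 1 and the MFG spots of PFI goats 2 and 3. In blood it lay between -0.10 and 1.07 with a median of 0.24. In MFG it read 3.28, 0.15, 1.77 and 1.08 in the PWI goats and 2.25 and 2.39 in PFI goats 1 and 4. The MSC ratios of the second probe, A_73_P102451, ran from 3.22 to 4.49 over all 8 goats, a wider range than that of the lead probe. The lead probe's net Cy5 signal in MSC ran from 2602.5 units in PWI goat 4 to 20879 in PFI goat 3, and its Cy3 reference signal from 114 to 509.5 in the same goats.

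CCL3 was 3.24 ± 0.32 higher in MSC than in blood (9.45-fold, adjusted p 5.45e-08), without overlap, and its second probe gave 3.74. MFG was 1.60 ± 0.34 above blood (3.04-fold, adjusted p 0.000389) at the lead probe and 0.91 above at the second (adjusted p 0.0521), so the probes fell on different sides of the threshold. The lead difference was 0.42 (adjusted p 0.222) with median centring. MFG differed from MSC by -1.64 ± 0.35 (3.11-fold lower, adjusted p 0.00115), and by -2.83 at the second probe. The reference channel of the CCL3 lead probe, which held the same RNA on every array, itself read 1.57 higher beside MSC than beside PNCB (adjusted p 3.34e-05), and beside MFG it differed from MSC by -1.38 (adjusted p 2.67e-05). With Cy5 alone the MSC difference from blood was 5.42 and the MFG difference from MSC was -3.39. The reference also read higher beside MSC than beside PNCB at the CCL2 lead probe (0.37, adjusted p 0.00337), and it read 0.58 higher at that of CXCL8 (adjusted p 0.0533). Beside MFG it was lower than beside MSC at the lead probes of CXCL8 (-0.84, adjusted p 0.000166), CCL2 (-0.44, adjusted p 2.97e-05) and CXCL2 (-0.43, adjusted p 0.000215). The part of these shifts in the results was not tested.

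CCL5, a product of T and NK cells, showed another pattern than CCL2 and CCL3. In MSC its lead probe A_73_100958 read -1.28, -0.44, -0.70 and -2.22 in PWI goats 1 to 4 and -1.47, 0.73, 1.06 and -0.02 in PFI goats 1 to 4. In blood it lay between -1.34 and 0.25 with a median of -0.60 over 7 arrays, inside the MSC range. In MFG it lay between -3.90 and -2.60 with a median of -3.56, below every value of the other sources. MSC goats differed 9.75-fold at the lead probe, and the other CCL5 probes ran from -1.24 to 0.95 and from -1.20 to 1.26 in MSC.

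MSC and blood differed in CCL5 by 0.05 ± 0.34, with an adjusted p of 0.924 and a 95% interval from -0.65 to 0.74, and the sign was opposite in the breeds (-0.63 within PWI, 0.72 within PFI goats, neither called). In MFG CCL5 differed from blood by -2.85 ± 0.34 (7.22-fold lower, adjusted p 1.78e-07) and from MSC by -2.90 ± 0.32 (7.45-fold lower, adjusted p 4.71e-07), and it was lower in every goat compared. The other CCL5 probes, A_73_P049591 and A_73_P107666, gave -1.56 and -1.80 against blood and -1.71 and -2.01 against MSC, all called. The reference at the lead probe read 0.55 higher beside MFG than beside MSC (adjusted p 8.25e-08), and with Cy5 alone the difference between those sources was -2.40. The calls of CCL5 in MFG held under all 23 alternative settings.

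CCL20, a ligand of CCR6 made by activated epithelium and macrophages, was at the edge of detection. Its probe A_73_P052371 was well above background in Cy5 on 6 of 8 MSC arrays, 0 of 8 PNCB arrays and 3 of 8 MFG arrays. Among the latter were the arrays of PWI goats 2 and 4, which stood apart in their share of probes above background. The probe was not tested in the main fit. In MSC it read 0.52, 0.26 and 1.78 in PWI goats 1 to 3 and 0.04, 0.42, 0.71 and 0.30 in PFI goats 1 to 4, where 5 of 7 values lay above the blood range of -0.15 to 0.28. In Cy5 MSC was 1.62-fold above blood, which is not a minimum, as MSC was itself not well above background on every array. A limma fit of the ratios without the filter on dim probes gave an adjusted p of 0.0276. The net Cy5 signal in MSC was 206 units in PWI goat 3 and 4 to 39 units in the other goats.

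The goats differed several-fold in the chemokine ratios of their milk cells. In MSC the lowest CXCL2 and CCL2 values belonged to PFI goat 4 and PWI goat 4 (CXCL2 5.10 and 5.13, CCL2 4.43 and 3.96), and PFI goat 4 was also lowest in CXCL8. PFI goat 2 was among the 2 highest goats for CXCL8, CXCL2, CCL2, CCL3 and CCL5, but was the lowest for CXCL5 (3.26). In MFG, PWI goat 1 was the highest goat for CXCL8, CXCL2, CXCL5, CCL2 and CCL3, and PWI goat 2 the lowest for the same genes. The array of the latter was the one with a spike-in slope of 0.489 and 84.6% of probes above background, and the part of that in the low values was not tested.

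**Figure D3:**
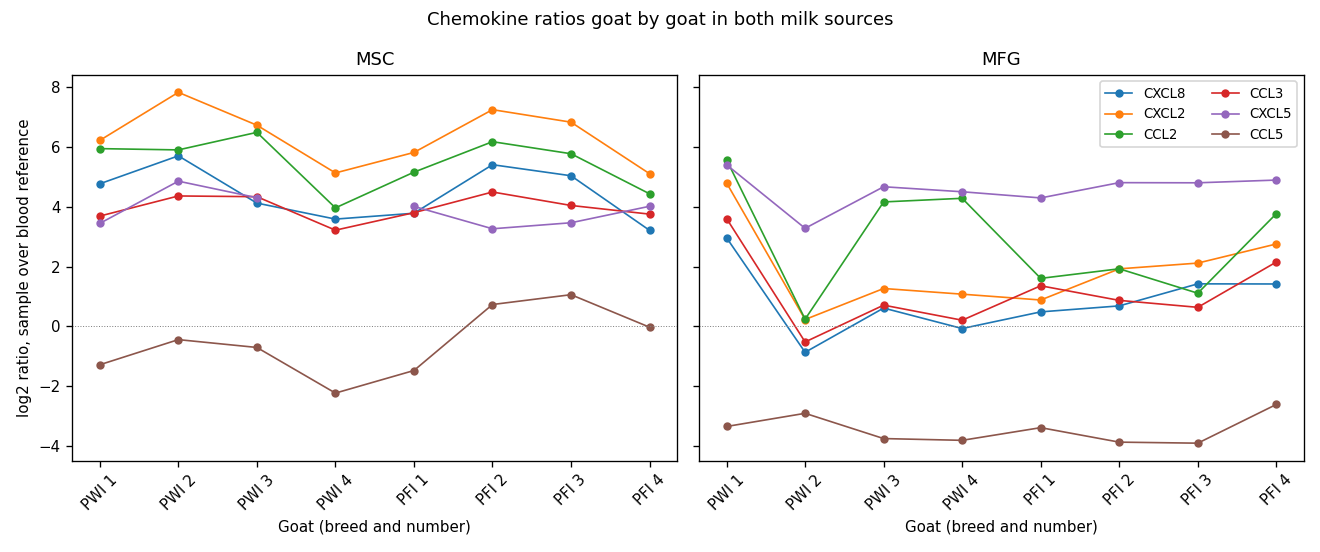
Log2 ratio over the blood reference for 6 chemokines in each goat, in MSC (left) and MFG (right), with lines joining the goats of one gene to guide the eye. CXCL8 and CCL3 are drawn from probes A_73_P108356 and A_73_P102451, which were measured on all arrays, and the other genes from their lead probes. In MSC the lines of CXCL8, CXCL2 and CCL2 dip at goat 4 of each breed, and in MFG all lines but that of CCL5 peak at PWI goat 1.

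As a description over arrays, which share the reference and the processing, CXCL2 had an r of 0.90 with CXCL8 (22 arrays), 0.91 with CCL2 (24) and 0.93 with CCL3 (21). Its r with CXCL5 was 0.58 and with CCL5 0.29. Arrays of all 3 sources enter these values. Among the 8 MSC arrays alone CXCL2 still had an r of 0.83 with CCL2, and 0.85 with CXCL8 over 6 arrays, but only 0.48 with CCL3 and 0.20 with CXCL5 over 7. In MFG CXCL2 had an r of 0.64 with CCL2. CXCL5 and CXCL8 had an r of 0.96 over 8 MFG arrays and of -0.96 over the 5 MSC arrays that measured both. In MFG, PWI goat 1 held the highest and PWI goat 2 the lowest value of CXCL8, CXCL2, CXCL5 and CCL2. The array of PWI goat 2 had a spike-in slope of 0.489. The part of these goats in the MFG values of r was not tested. Probes of the same gene had an r from 0.92 to 0.97 for CXCL8, of 0.90 for CCL2, of 0.95 for CCL3 and from 0.95 to 0.98 for CCL5.

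Outside the set, the accessions whose ratios were most like the CXCL8 lead probe over the 22 arrays that measured it were NM_001075202 (r 0.93) and NM_001035390 (r 0.93), followed by NM_001192147 (r 0.92) and NM_174147 (r 0.91), among 11548 probes compared. The files do not pair these accessions with names. Their log2 differences between MSC and PNCB were 2.73, 1.65, 4.19 and 4.26 in that order.

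Whether a goat with high chemokine mRNA in its milk cells also had it in its fat globules was tested for 6 lead probes. These were in the main fit and were measured in both sources in at least 6 goats. None of the 6 passed after Benjamini-Hochberg adjustment in a two-sided exact permutation test over pairings. CXCL5 came nearest, with goats high in MSC being low in MFG at r = -0.81 (n = 7, exact permutation p 0.0288, adjusted 0.173) and rho = -0.64 (exact permutation p 0.139, adjusted 0.833). Without the 2 goats farthest from the median in MSC, r was -0.61. For CXCL8, CXCL2, CXCL10, CCL2 and CCL5, r lay between -0.25 and 0.31 with an adjusted exact permutation p of 0.869 for each. Without the 2 goats farthest from the median, r moved to 0.94 for CXCL8 (from 0.16, 4 goats left) and to 0.65 for CXCL10 (from 0.31), and it lay between -0.07 and 0.40 for CXCL2, CCL2 and CCL5. CCL3 was measured in both sources in too few goats, and CCL20 was not in the main fit.

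No chemokine passed the test between the breeds in any source. Of 15 probes 0 were called between PWI and PFI goats in MSC, in PNCB and in MFG (limma, 4 goats against 4), where 0%, 0.0109% and 0.0146% of all tested probes were called. The unadjusted p was under 0.05 for 1 probe in MSC and for 0 in PNCB and 0 in MFG. That probe was the CXCL10 lead, at -0.90 in PWI and -0.59 in PFI milk cells (difference -0.31, p 0.0327, adjusted 0.988). The test of whether breed differences varied with source called 0 of 15 probes, against 0.011% of all probes, with a smallest adjusted p of 0.766 and 0 probes at an unadjusted p under 0.05.

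These intervals leave room for sizeable breed differences in the milk sources. The 95% interval stayed within a 2-fold difference for 5 probes in MSC, 11 in PNCB and 6 in MFG. The largest difference among lead probes in MSC was that of CCL5, at -1.16 in PWI and 0.08 in PFI goats, a difference of -1.24 with an interval from -2.54 to 0.07 (adjusted p 0.988). In MFG it was that of CCL2, at 3.56 and 2.10, a difference of 1.46 with an interval from -0.99 to 3.91 (adjusted p 0.56). In both cases the values of the breeds overlapped. CXCL8 in MSC differed by 0.27 (interval -1.21 to 1.75) and CXCL2 by 0.23 (interval -1.18 to 1.63), so a breed difference of 2-fold in these genes was not excluded at this number of goats.

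**Figure D4:**
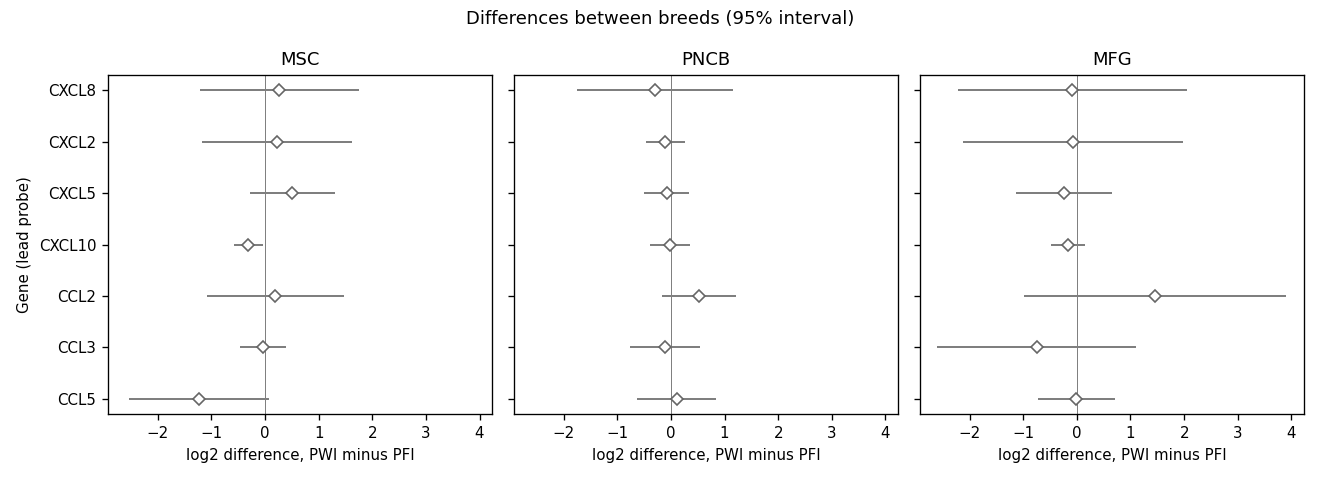
Log2 difference between PWI and PFI goats with its 95% interval for the lead probe of each tested chemokine in MSC, PNCB and MFG, 4 goats a breed less the spots left out. All symbols are drawn open whatever the test result, and no probe was called. The intervals of CXCL8 and CXCL2 are wide in both milk sources while CXCL10 is tightly bounded.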

How the data were processed

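RNA of 24 samples was hybridised to 24 Agilent cattle arrays, 8 per source and 4 per group of source and breed. Per the file headers, the deposited scanner files hold spot and background intensity in both channels and 0 or 1 flags, made with Agilent Feature Extraction 10.7.3.1 and not normalized between arrays. In the deposited value table the authors give log10 ratios (Cy5 over Cy3), which equal the software's own in every spot (largest difference 0), so their scale and direction are known. The log2 ratios used here were computed with R 4.3.3 and limma 3.58.1. After outlier-flagged spots had been removed, normexp background correction (offset 50) and within-array loess were applied, with control spots at weight 0. Replicate spots of a probe were then averaged. The number of saturated Cy5 spots was 0.

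Testing required Cy5 well above background on every array of 1 or more of the 6 groups, which held for 27411 probes, of which 27381 had values in every group. That rule passed 15 of 16 chemokine probes. Probes A_73_114724 and A_73_P107661 passed it only through milk groups, and A_73_P107671 and A_73_P102356 only through blood groups. One limma fit of 6 group means over 24 arrays gave the source comparisons and the breed by source F-test, whose moderated F came from the residual sums of squares with and without the interaction because of missing spots, and fits of 8 arrays gave the breed comparisons. p-values were adjusted by Benjamini-Hochberg over all probes tested, with a threshold of 0.05. All members are named, and the lead probe of a gene is the one with the highest mean Cy5 signal over all arrays. The likeness rule asked for probes measured on all arrays, but the CXCL8 lead probe was measured on 22, and those were used. A fold given in Cy5 compares Cy5 means after loess and Aquantile normalization. The dim group was set on each array to no less than the lowest signal of probes well above background. That setting left the CXCL2 means unchanged, so these folds are not minima.

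The members and lists were chosen with earlier results of these data known. Lists of chemokine receptors and cell type markers were not run, since 0 of 26748 accessions matched the goat gene table. Goats of one number and breed are the same animals in all sources per the labels' titles and the design text. The deviations of a goat's arrays from their group means correlated between -0.26 and 0.32, and the goat was used as a block in an alternative. The precision is limited by the number of arrays. The test was checked on simulated data.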

Additional observations from a re-analysis of the deposited data

Results flagged for a closer look

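CXCL5 in MFG of the PFI goats had one value apart from the rest. Goat 1 was at 4.29, while the other PFI goats lay between 4.80 and 4.89. Over the lead probes, 40 groups with 4 values were examined, where chance alone would give about 2 such cases, and 1 was found. The value of goat 1 is still far above all blood values of CXCL5, the highest of which was 0.54.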

How the results depend on the processing

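Leaving out each goat in turn gave 10 to 11 called chemokine probes in MSC against PNCB, 10 to 12 in MFG against PNCB and 11 to 12 in MFG against MSC, and 0 in every breed and interaction comparison and 0 related members between MSC and MFG of a goat. Requiring signal above background on all arrays left 8 probes, of which 5 were called in MSC against PNCB and 7 in MFG against MSC. With 1 mean per gene, 6 of 7 genes were called in each source comparison. In the main fit 22.5% of all probes were called higher and 27.1% lower in MSC against PNCB. The shares were 25.5% and 38.4% in MFG against PNCB and 12.6% and 22.2% in MFG against MSC. In MFG against PNCB the counts in this section therefore do not set the chemokines apart from the array. The CXCL5 difference between MFG and MSC reversed with median centring (-0.57) and with flagged spots kept (-0.0073). Over all lead probes and source comparisons, 443 alternative values kept direction and call, 18 lost the call, 1 gained it, 2 reversed and 10 uncalled values moved, and the causes were not tested. With the goat as a replicate block 10, 10 and 11 probes were called, and among lead probes the block changed only the CXCL5 call. Between breeds, with the goat number as a replicate block, 0 probes were called. Low signal limits CXCL2, CXCL5 and the second CCL2 probe in blood, the further CXCL10 probes in milk, and CCL20.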
